A study of Mus musculus with 20 samples.

Results

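Matrix metalloproteases and their inhibitors were followed in endothelial cells of a mouse mammary tumour grown in hosts with different T-cell defects. The members are the protein-coding genes whose symbols belong to the Mmp, Adam, Adamts or Timp families: 22 Mmp, 33 Adam, 19 Adamts and 4 Timp genes, 78 of the 46983 genes in the tables. Of these, 26 averaged at least 1 TPM (transcripts-per-million, a level scaled for length and depth) over the 20 libraries and are described one by one. The members just above that line were Adamts8 (1.25 TPM), Adam11 (1.05 TPM) and Adamts5 (1.01 TPM), and those just under it were Timp4 (0.870 TPM), Adamts18 (0.850 TPM) and Mmp25 (0.842 TPM). The symbols chose the members, the line of 1 TPM set which were described in full, and the smallest p-values of a comparison set which were named in it.

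The cells were sorted for CD31 (Pecam1), a protein on the surface of endothelium, from tumours of E0771, a mammary carcinoma line of the mouse, and their RNA was sequenced in bulk. The tumours had grown orthotopically in C57BL/6J mice until they measured 500 mm3. The backgrounds classed as deficient in CD4 T cells were CD4KO (3 libraries), TCRKO (3 libraries) and Tie2Cre_H2Abf (4 libraries), in which floxed H2-Ab1 meets the Cre of the Tie2Cre line. The backgrounds classed as competent were CD8KO (3 libraries), Tie2Cre (3 libraries), which carries the Cre alone, and WT (4 libraries). Tie2Cre is driven by the Tek promoter, which is active in endothelial and in blood-forming cells, so the class II gene is not lost from endothelium alone. Whether each library stands for its own animal is not said in the labels, so every p-value describes the spread of these libraries, which may be technical.

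The depth of a library was 1543847 counts at the lowest (Tie2Cre_9501) and 11478902 at the highest (Tie2Cre_H2Abf_9589). Pecam1 was present in every library at 435 to 1377 CPM (counts-per-million, with library sizes scaled by TMM). H2-Ab1, a class II chain, stood at 0.712 to 6.37 CPM in Tie2Cre_H2Abf, against 25.3 to 96.2 CPM in Tie2Cre. Cd8a stood at 39.0 to 69.8 CPM in the libraries labelled CD8KO and at no more than 2.94 CPM elsewhere, which goes against that label, and each comparison with them rests on the label as given. The 3 libraries labelled CD4KO had 15.7, 4.22 and 7.55 CPM of Cd4, against 2.81, 8.71, 15.6 and 0.379 CPM in WT, with CD4KO_9768 the highest of all 20. Total Cd4 RNA therefore did not set the CD4KO libraries apart from WT, whether its reads come from a deleted part of the gene cannot be told from gene totals, and the comparisons with CD4KO rest on the label as well. WT_9771 and Tie2Cre_9501 stood apart, with 2341 and 1707 CPM of olfactory and vomeronasal receptor genes, against at most 538 CPM in the other 18. The same libraries had 87.0 and 58.6 CPM over the 21 ADAM genes known mainly from testis, against at most 11.1 CPM elsewhere. Log2 fold changes of named members that moved by over 1.5 times without this pair are also given without it. Protein-coding genes took 65.6% of the TPM in CD8KO_9752, 73.5% in WT_9771 and 59.0% in Tie2Cre_9501, against at most 24.2% in the others. The summed TPM of the members was lowest in WT_9771, at 160.3, and highest in CD8KO_9752, at 1941, so the comparisons of single members between libraries use CPM. The TMM factors behind CPM ran from 0.523 (Tie2Cre_H2Abf_9576) to 3.685 (CD8KO_9752). Some gaps between groups in CPM did not hold in TPM, as given below.

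The metzincin proteases named here cut proteins with a zinc ion in the active site. Secreted MMPs and the membrane-anchored MT-MMPs cut collagens, elastin and basement membrane; ADAMs shed the outer parts of membrane proteins such as Notch receptors, TNF and adhesion molecules; and ADAMTS enzymes cut proteoglycans such as versican and aggrecan, procollagens and von Willebrand factor. TIMPs are small proteins that sit in the active site of these enzymes, and in growing vessels the balance between proteases and TIMPs is known to govern basement membrane loss, sprouting and vessel stability.

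Promoter sequences are shown for the inhibitor with the highest level (Timp3), for the membrane MMP with the highest level (Mmp14) and for 3 neighbours in the Mmp cluster of chromosome 9 that differ in level (Mmp13, Mmp12 and Mmp3). RefSeq promoters (build GRCm38.p6, 250 bases before and 50 after the annotated start) matched 48 of the 78 members. Each is printed 5′ to 3′ on the strand of the gene, and capitals mark matches to the AP-1 motif TGANTCA, the GC box GGGCGG and the TATA motif TATAAA on either strand. TGANTCA reads the same on both strands, and no matches overlapped in the windows printed.
Timp3, chr10:86300162-86300461, plus strand: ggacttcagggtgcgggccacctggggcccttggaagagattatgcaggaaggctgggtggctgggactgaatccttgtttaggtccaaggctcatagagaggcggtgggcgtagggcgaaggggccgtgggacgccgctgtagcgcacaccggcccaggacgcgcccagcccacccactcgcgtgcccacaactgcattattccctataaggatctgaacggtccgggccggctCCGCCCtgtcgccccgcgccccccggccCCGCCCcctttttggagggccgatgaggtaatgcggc
Mmp14, chr14:54431348-54431647, plus strand: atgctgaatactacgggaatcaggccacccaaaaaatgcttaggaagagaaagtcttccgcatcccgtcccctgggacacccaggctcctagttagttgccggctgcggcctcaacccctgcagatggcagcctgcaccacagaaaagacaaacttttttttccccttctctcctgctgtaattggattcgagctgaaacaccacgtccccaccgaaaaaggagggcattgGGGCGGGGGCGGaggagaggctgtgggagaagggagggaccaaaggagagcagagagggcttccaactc
Mmp13, chr9:7272264-7272563, plus strand: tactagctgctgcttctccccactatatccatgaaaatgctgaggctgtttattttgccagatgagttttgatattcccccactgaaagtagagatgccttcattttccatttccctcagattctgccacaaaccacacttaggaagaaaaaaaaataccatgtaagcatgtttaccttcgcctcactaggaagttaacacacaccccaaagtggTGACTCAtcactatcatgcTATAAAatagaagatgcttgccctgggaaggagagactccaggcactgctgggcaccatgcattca
Mmp12, chr9:7347124-7347423, plus strand: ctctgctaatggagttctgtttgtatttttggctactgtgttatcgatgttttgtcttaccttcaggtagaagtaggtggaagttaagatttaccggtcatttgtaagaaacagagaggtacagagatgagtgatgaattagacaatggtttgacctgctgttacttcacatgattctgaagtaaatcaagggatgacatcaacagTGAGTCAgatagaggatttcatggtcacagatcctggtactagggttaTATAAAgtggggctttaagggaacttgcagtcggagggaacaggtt
Mmp3, chr9:7445572-7445871, plus strand: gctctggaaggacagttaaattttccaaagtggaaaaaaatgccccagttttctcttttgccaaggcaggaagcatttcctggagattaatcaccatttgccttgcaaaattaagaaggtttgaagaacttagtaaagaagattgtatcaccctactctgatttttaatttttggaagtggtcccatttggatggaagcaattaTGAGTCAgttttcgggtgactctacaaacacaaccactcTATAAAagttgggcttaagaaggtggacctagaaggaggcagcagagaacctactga

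The Timp3 window held 67.0% G or C with 24 CpG, and its GC boxes began at bases -15 and 14 from the start. The Mmp14 window held 56.0% G or C with 10 CpG, with GC boxes at -19 and -13. The cluster genes were poor in CpG: 1 in Mmp13, 3 in Mmp12 and 1 in Mmp3. Each of these printed windows held the AP-1 motif and the TATA motif, at -35 and -16 in Mmp13, at -44 and 5 in Mmp12 and at -46 and -7 in Mmp3. RefSeq lists a second Mmp12 window, chr9:7344147-7344446, which lies at the start of the gene in GENCODE (7344381) and held 38.7% G or C, 0 CpG and no match to the 3 motifs. It is not printed, and which start the cells used was not measured. Mmp3 had 3 counts in all 20 libraries together, so windows with the same motifs stood at genes of unlike level. The 48 matched members had 53 windows. The GC box was found in 13 of 20 windows of members of at least 1 TPM (65.0%) and in 10 of 33 windows of members under 1 TPM (30.3%), against 35.7% of all 32851 promoters in the table. The AP-1 motif was found in 12 of the 53 windows (22.6%), against 7.81% of all promoters, and the TATA motif in 13 (24.5%), against 13.6%. These are matches of letters and no test was made of them.

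Transcript levels were dominated by few genes. Timp3 (100.5 TPM on average), Adam15 (91.3 TPM), Adamts4 (87.7 TPM), Adamts9 (75.7 TPM), Mmp14 (69.3 TPM), Adamts1 (42.8 TPM) and Adamts7 (34.0 TPM) together made up 61.9% to 84.1% of the summed TPM of all 78 members in a library. Timp3 had the highest TPM of all members in 9 libraries, Adam15 in 5 and Adamts4 in 4, and Timp3 and Adamts4 were among the 5 highest in all 20. By family the ADAMTS genes held 34.2% to 51.3% of the members' TPM, the ADAMs 16.8% to 32.7%, the MMPs 10.4% to 25.6% and the TIMPs 10.2% to 27.3%. The TIMP share was 20.7% to 27.3% in the 4 Tie2Cre_H2Abf libraries, against 10.2% to 16.3% in the 3 Tie2Cre libraries. It was 10.8% to 21.8% in CD4KO, 13.8% to 15.9% in TCRKO, 14.6% to 17.5% in the libraries labelled CD8KO and 11.1% to 23.7% in WT, so CD4KO and WT libraries also reached the range of Tie2Cre_H2Abf. These shares were not tested. The members as a whole held 0.149% to 0.620% of the protein-coding TPM, apart from Tie2Cre_9501 with 0.0746% and WT_9771 with 0.0218%.

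**Figure D1:**
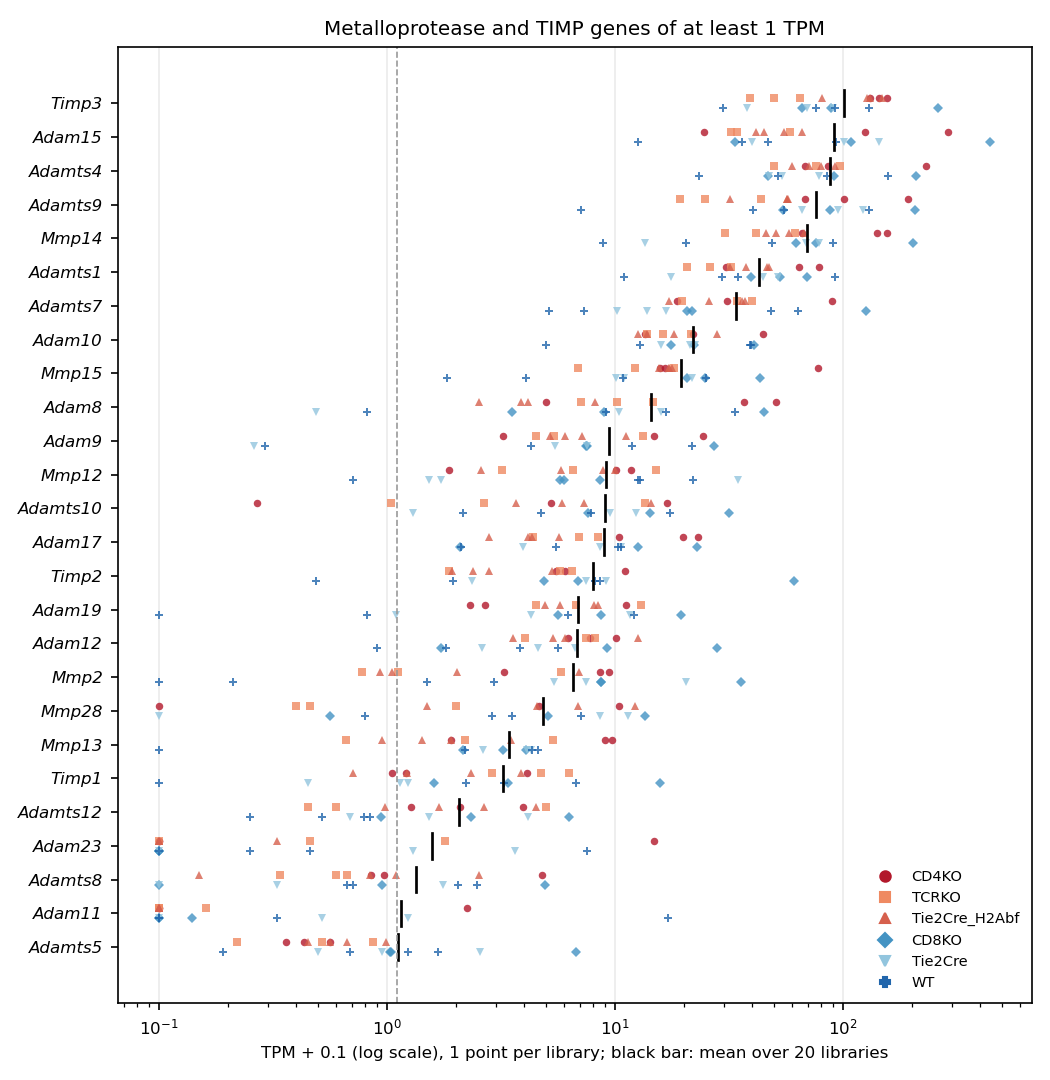
Levels of the 26 members of at least 1 TPM, ordered by mean. The horizontal axis is TPM plus 0.1 on a log scale, each point is 1 library, the black bar is the mean over 20 libraries and the dashed line marks 1 TPM. Timp3, Adam15 and Adamts4 lead with means of 100.5, 91.3 and 87.7 TPM, and Adam23 and Adam11 rest on few libraries.

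**Figure D2:**
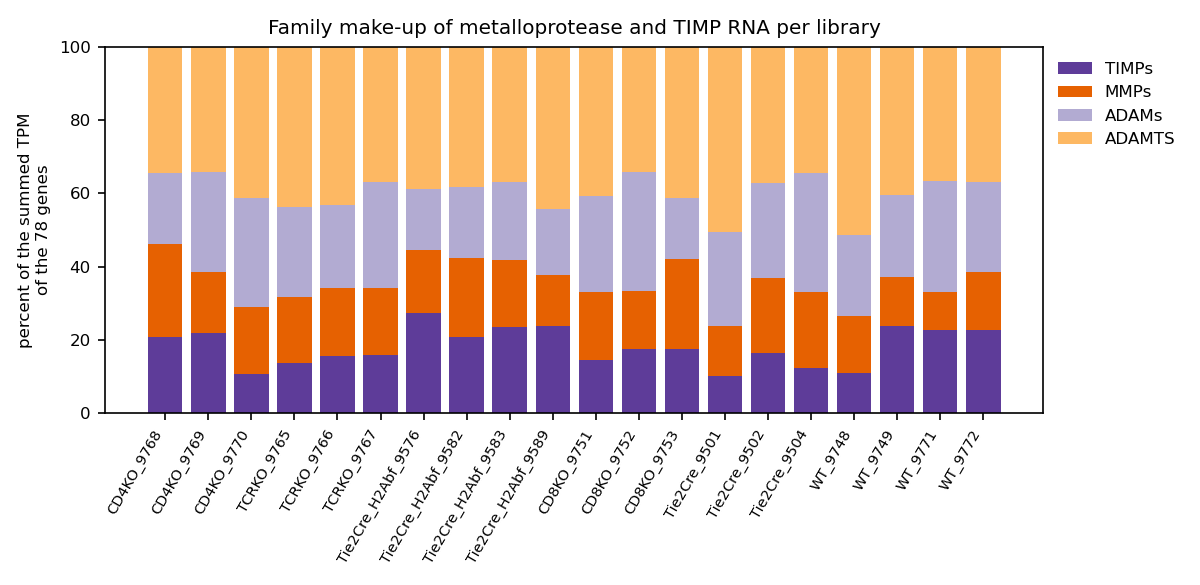
Share of each family in the summed TPM of the 78 members, per library, as stacked bars in percent. The ADAMTS genes hold 34.2% to 51.3%, and the TIMP share is 20.7% to 27.3% in Tie2Cre_H2Abf, 10.2% to 16.3% in Tie2Cre and 11.1% to 23.7% in WT.

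TIMP3, the inhibitor that stays bound to the extracellular matrix, blocks MMPs, ADAM17 and the aggrecan-cutting ADAMTS enzymes and keeps VEGF from its receptor VEGFR2. Timp3 stood at 378, 446 and 332 in CD4KO, 215, 208 and 143 in TCRKO, and 714, 361, 470.2 and 693 in Tie2Cre_H2Abf CPM, against 285, 218 and 289 in libraries labelled CD8KO, 114, 299 and 197 in Tie2Cre, and 296, 465, 313 and 378 in WT. The highest levels were in Tie2Cre_H2Abf and the lowest in Tie2Cre_9501 and TCRKO_9767, and the CD4-deficient and CD4-competent libraries overlapped. Exons of Timp3 (chromosome 10, 86300372 to 86349506, plus strand) share 1733 bases with Syn3 on the other strand, which this unstranded assay cannot separate, but Syn3 had 359 counts in all libraries against 47653 for Timp3. TIMP2 inhibits MMPs and also helps MMP14 to activate MMP2 at the cell surface. Timp2 stood at 12.9, 26.4 and 10.4 in CD4KO, 4.68, 18.8 and 18.4 in TCRKO, and 12.04, 6.44, 12.99 and 9.55 in Tie2Cre_H2Abf CPM, against 17.9, 40.6 and 16.2 in libraries labelled CD8KO, 5.29, 20.2 and 19.9 in Tie2Cre, and 20.03, 9.13, 3.28 and 20.1 in WT. CD8KO_9752 was the highest and WT_9771 the lowest, and the groups of each comparison overlapped. Timp1, an inhibitor induced by injury and cytokines, averaged 3.11 TPM and never exceeded 3.28 CPM. It stood at 1.75, 0.384 and 0.296 in CD4KO, 2.46, 1.66 and 2.27 in TCRKO, and 1.77, 0.339, 1.42 and 0.724 in Tie2Cre_H2Abf CPM, against 0.577, 1.45 and 1.86 in libraries labelled CD8KO, 0.378, 0.487 and 0.126 in Tie2Cre, and 0, 2.55, 3.28 and 2.27 in WT, close to the level of 3 counts, which was 0.128 to 2.46 CPM depending on the library. Timp4, an inhibitor known from heart and fat tissue, had counts in 13 libraries. It stood at 0, 4.61 and 0 in CD4KO, 2.34, 0.475 and 8.64 in TCRKO, and 0, 1.19, 2.49 and 0.434 in Tie2Cre_H2Abf CPM, against 7.64, 0.939 and 0.58 in libraries labelled CD8KO, 14.4, 3.66 and 0 in Tie2Cre, and 0, 0, 24.6 and 0 in WT. Its highest levels were in WT_9771 and Tie2Cre_9501, the pair that stands apart.

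Among membrane-bound MMPs only Mmp14 and Mmp15 averaged at least 1 TPM, of 7. MMP14 (MT1-MMP) cuts fibrillar collagen at the cell surface and is needed for sprouting endothelium to invade collagen. Mmp14 stood at 225, 98.5 and 176 in CD4KO, 108, 96.5 and 57.1 in TCRKO, and 168, 110.3, 108 and 127 in Tie2Cre_H2Abf CPM, against 126, 89.6 and 140.2 in libraries labelled CD8KO, 17.4, 141 and 96.9 in Tie2Cre, and 148, 67.5, 38.6 and 70.2 in WT. CD4KO_9768 was the highest and Tie2Cre_9501 the lowest, and the groups of each comparison overlapped. Mmp15 encodes MT2-MMP, a close relative. It stood at 44.1, 47.1 and 162 in CD4KO, 21.4, 74.8 and 41.6 in TCRKO, and 91.2, 64.7, 53.03 and 85.4 in Tie2Cre_H2Abf CPM, against 77.4, 34.4 and 82.99 in libraries labelled CD8KO, 30.2, 70.6 and 26.2 in Tie2Cre, and 31.6, 23.1, 17.2 and 70.2 in WT. CD4KO_9770 stood above all others, and WT_9771 was the lowest.

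Of the 15 secreted MMPs, 4 averaged at least 1 TPM: Mmp12 (9.01 TPM), Mmp2 (6.45 TPM), Mmp28 (4.73 TPM) and Mmp13 (3.31 TPM). Mmp12 is macrophage elastase. It stood at 4.37, 7.80 and 5.70 in CD4KO, 12.9, 5.46 and 5.68 in TCRKO, and 8.32, 13.04, 11.8 and 3.62 in Tie2Cre_H2Abf CPM, against 4.61, 1.28 and 9.17 in libraries labelled CD8KO, 3.40, 1.46 and 29.1 in Tie2Cre, and 10.4, 19.97, 5.74 and 16.7 in WT. Tie2Cre_9504 was the highest, and every background overlapped with the others. The summed CPM of 10 macrophage markers ran from 89.6 to 734, with counts for each of the 10 in every background, so macrophage RNA was present in the libraries, and its part in the Mmp12 level was not tested. MMP2, gelatinase A, cuts denatured collagen and collagen IV of basement membrane. Mmp2 stood at 17.9, 6.14 and 11.9 in CD4KO, 12.2, 2.85 and 1.59 in TCRKO, and 3.01, 5.42, 13.7 and 3.18 in Tie2Cre_H2Abf CPM, against 18.02, 19.0 and 23.6 in libraries labelled CD8KO, 38.5, 16.2 and 9.45 in Tie2Cre, and 5.63, 0.425, 0 and 2.65 in WT. The 4 WT libraries were low, and WT_9771 had 0 counts, where 3 counts would be 2.46 CPM. Mmp28, epilysin, was in 18 libraries at 0, 21.9 and 6.73 in CD4KO, 0.739, 3.68 and 0.909 in TCRKO, and 5.49, 12.7, 26.2 and 18.1 in Tie2Cre_H2Abf CPM, against 10.5, 7.86 and 0.58 in libraries labelled CD8KO, 0, 22.7 and 15.6 in Tie2Cre, and 15.6, 7.22, 4.10 and 3.98 in WT. CD4KO_9768 and Tie2Cre_9501 had none. Mmp13, collagenase 3, reached at most 14.97 CPM, in CD4KO_9769. Mmp9, gelatinase B, a marker of neutrophils and invading cells, had counts in only 5 libraries and at most 1.36 CPM. The cluster of 9 Mmp genes on chromosome 9 (7272514 to 7699585) held Mmp13 and Mmp12 at its start, while its other 7 genes averaged 0.0115 to 0.356 TPM.

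ADAM15 carries an integrin-binding RGD motif in human and is found at endothelial junctions. Adam15 stood at 37.8, 159 and 257 in CD4KO, 85.5, 83.9 and 42.7 in TCRKO, and 116, 92.6, 111 and 147 in Tie2Cre_H2Abf CPM, against 142, 140.5 and 69.1 in libraries labelled CD8KO, 35.9, 186 and 189.6 in Tie2Cre, and 162, 77.95, 70.6 and 68.1 in WT. Its level varied strongly within CD4KO and Tie2Cre, and the groups of each comparison overlapped. ADAM10 sheds Notch receptors and VE-cadherin. Adam10 had the narrowest range of the 26, with its highest library 3.45 times its lowest, at 39.96, 62.2 and 94.9 in CD4KO, 53.3, 58.6 and 66.2 in TCRKO, and 72.6, 50.6, 83.6 and 87.1 in Tie2Cre_H2Abf CPM, against 63.9, 34.2 and 68.4 in libraries labelled CD8KO, 66.1, 67.03 and 41.8 in Tie2Cre, and 114, 64.4, 41.03 and 118 in WT. No background stood apart. ADAM17 releases TNF and ligands of the EGF receptor. Adam17 stood at 15.7, 36.3 and 45.4 in CD4KO, 11.1, 10.6 and 10.5 in TCRKO, and 17.9, 11.2, 14.2 and 11.3 in Tie2Cre_H2Abf CPM, against 36.9, 17.8 and 7.89 in libraries labelled CD8KO, 9.45, 20.8 and 8.19 in Tie2Cre, and 29.5, 55.9, 4.92 and 12.5 in WT. WT_9749 was the highest and WT_9771 the lowest, so the WT libraries spanned the whole range. ADAM8 is known from leukocytes. Adam8 stood at 72.5, 9.60 and 68.01 in CD4KO, 7.14, 28.9 and 34.5 in TCRKO, and 12.2, 11.7, 12.5 and 2.46 in Tie2Cre_H2Abf CPM, against 19.03, 23.9 and 9.63 in libraries labelled CD8KO, 0.756, 23.3 and 27.6 in Tie2Cre, and 67.5, 24.0, 4.92 and 34.1 in WT. Tie2Cre_9501, Tie2Cre_H2Abf_9589 and WT_9771 were low, and the sums of the macrophage markers there were 169, 89.6 and 235 CPM. The sums were 90.8 and 594 CPM in Tie2Cre_H2Abf_9576 and Tie2Cre_H2Abf_9582, where Adam8 stood at 12.2 and 11.7 CPM. The part of macrophage RNA in the Adam8 level was not tested. ADAM9 sheds several growth factors. Adam9 stood at 7.86, 38.1 and 44.99 in CD4KO, 37.1, 16.4 and 16.1 in TCRKO, and 27.97, 18.97, 29.4 and 31.1 in Tie2Cre_H2Abf CPM, against 20.6, 19.3 and 26.9 in libraries labelled CD8KO, 0.378, 21.6 and 12.3 in Tie2Cre, and 30.8, 21.7, 1.64 and 54.3 in WT, with the lowest levels in the pair of libraries that stand apart. The meltrins Adam12 and Adam19 averaged 6.70 and 6.78 TPM.

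ADAM11 and ADAM23 lack the catalytic site and are known from neurons. Adam23 stood at 22.9, 0 and 0 in CD4KO, 0.862, 0 and 2.96 in TCRKO, and 0, 0, 0.534 and 0 in Tie2Cre_H2Abf CPM, against 0, 0 and 0 in libraries labelled CD8KO, 7.94, 0 and 2.39 in Tie2Cre, and 0.828, 0, 43.5 and 0.568 in WT. WT_9771 and CD4KO_9768 held most of it, and in 11 of the libraries it had 0 counts. Adam11 stood at 0.873, 0 and 0 in CD4KO, 0, 0 and 0.227 in TCRKO, and 0, 0, 0 and 0 in Tie2Cre_H2Abf CPM, against 0.144, 0 and 0 in libraries labelled CD8KO, 3.40, 0 and 0.126 in Tie2Cre, and 0, 0, 2.46 and 18.4 in WT. WT_9772 alone was high. Both therefore passed the line of 1 TPM through single libraries. None of the 21 ADAMs known mainly from testis averaged 1 TPM, and Adam2, Adam18 and Adam34 had 0 counts in all libraries.

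The ADAMTS enzymes that cut proteoglycans were the group with the highest levels. ADAMTS4 is an aggrecanase that also cuts versican. Adamts4 stood at 186, 249 and 486 in CD4KO, 310.3, 318 and 170.5 in TCRKO, and 370.4, 253, 242 and 465 in Tie2Cre_H2Abf CPM, against 288, 167 and 191 in libraries labelled CD8KO, 134, 258 and 138 in Tie2Cre, and 469.8, 304, 221 and 240.4 in WT. Its range was narrow, with the highest library 3.63 times the lowest. ADAMTS9 cuts versican and is known in mice to restrain vessel growth. Adamts9 stood at 168, 172 and 273 in CD4KO, 98.04, 63.7 and 67.1 in TCRKO, and 201, 98.7, 118 and 185 in Tie2Cre_H2Abf CPM, against 172, 104 and 139 in libraries labelled CD8KO, 144, 152 and 227 in Tie2Cre, and 229, 196, 104 and 106 in WT. The 3 TCRKO libraries were the lowest of the 20. ADAMTS1 cuts versican and can bind VEGF. Adamts1 stood at 97.2, 207 and 180.4 in CD4KO, 116, 121 and 79.3 in TCRKO, and 183, 176, 159.8 and 260.0 in Tie2Cre_H2Abf CPM, against 188, 61.6 and 177 in libraries labelled CD8KO, 120.5, 184 and 51.6 in Tie2Cre, and 239, 195, 119.8 and 110.2 in WT, and the groups of each comparison overlapped. Adamts5, the other main aggrecanase, was far lower, at 1.75, 2.56 and 1.04 in CD4KO, 0.739, 3.33 and 5.001 in TCRKO, and 3.54, 3.73, 5.16 and 5.500 in Tie2Cre_H2Abf CPM, against 5.62, 10.2 and 7.31 in libraries labelled CD8KO, 13.2, 2.56 and 4.28 in Tie2Cre, and 9.11, 1.06, 21.3 and 3.22 in WT. WT_9771 and Tie2Cre_9501, which stand apart, had its highest levels. ADAMTS7 and ADAMTS12 cut the cartilage protein COMP. Adamts7 stood at 53.7, 24.1 and 129 in CD4KO, 81.05, 96.1 and 53.2 in TCRKO, and 90.5, 50.8, 63.5 and 83.2 in Tie2Cre_H2Abf CPM, against 51.2, 62.2 and 65.6 in libraries labelled CD8KO, 14.4, 32.7 and 24.3 in Tie2Cre, and 104, 29.7, 56.6 and 91.05 in WT. The 3 Tie2Cre libraries lay near the bottom of its range. Adamts12 stood at 4.80, 8.32 and 11.8 in CD4KO, 22.8, 2.14 and 2.501 in TCRKO, and 19.8, 5.42, 19.4 and 11.7 in Tie2Cre_H2Abf CPM, against 10.2, 7.26 and 4.99 in libraries labelled CD8KO, 16.6, 6.83 and 2.27 in Tie2Cre, and 0.662, 3.61, 10.7 and 2.84 in WT, with the lowest level in WT_9748. Adamts10, whose protein binds fibrillin microfibrils, averaged 8.89 TPM and ran from 0.437 to 26.9 CPM. The procollagen-processing Adamts2, Adamts3 and Adamts14 were all under 1 TPM, with 22 to 119 counts in all.

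**Figure D3:**
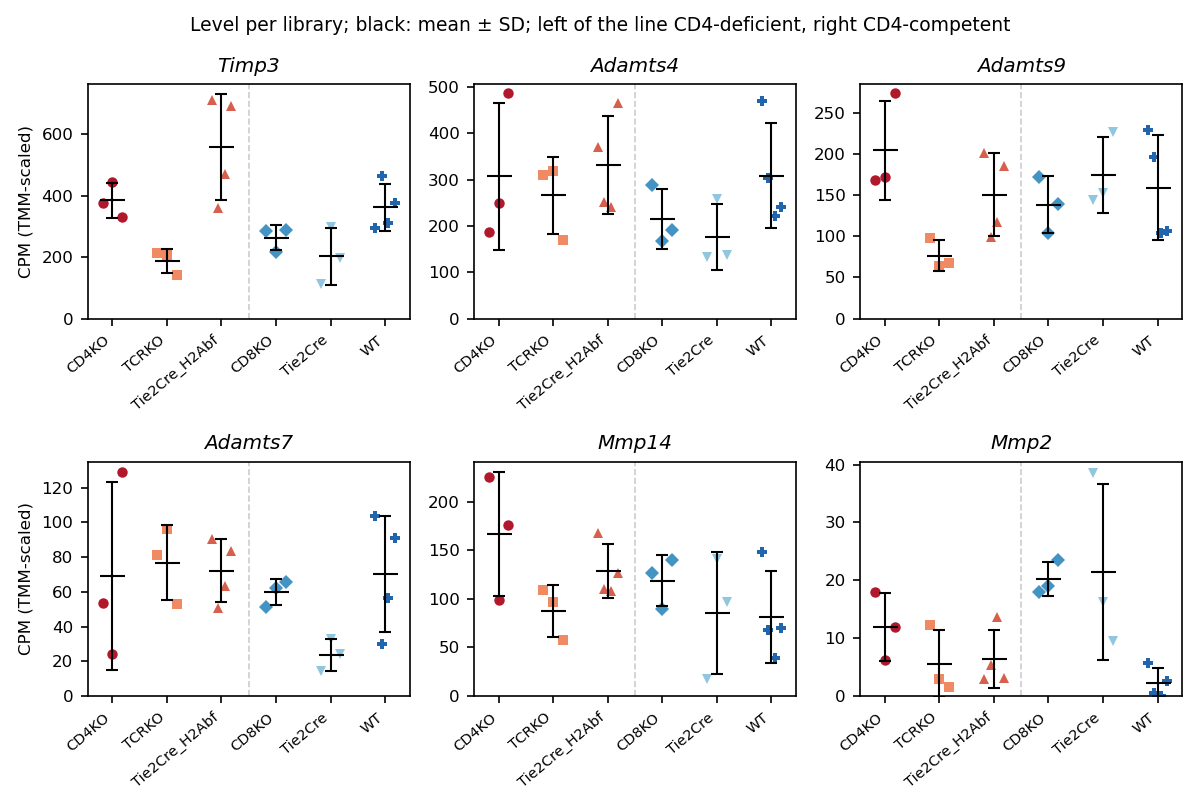
Level per library of 6 members in TMM-scaled CPM, by background, with the mean and SD in black (SD bars are cut at 0). CD4-deficient backgrounds stand left of the dashed line. Timp3 is at 361 to 714 CPM in Tie2Cre_H2Abf, against 114 to 299 in Tie2Cre, and Mmp2 is at most 5.63 CPM in WT.

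The 52 members under 1 TPM had 0 to 509 counts each over all libraries. Of the 78 members 43 had enough counts to be tested, all 26 of at least 1 TPM and 17 of the others. A gene that passes a filter on low counts through the background where it is high had to differ, so the counts below describe the tested members only. Differences were tested with edgeR's quasi-likelihood test and Benjamini-Hochberg adjustment over 14875 genes, at an adjusted p of 0.05. In all 7 comparisons edgeR called 0 members.

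CD4 status was the comparison the series was built on, with 10 CD4-deficient against 10 CD4-competent libraries. Its fit takes different backgrounds as replicates of a CD4 status. The spread behind its p-values therefore holds differences between backgrounds as well as between libraries. It also rests on the CD4KO and CD8KO labels. edgeR called 0 of 43 members, as it called 0% of all genes, and 4 members had an unadjusted p under 0.05, against 7.27% of all genes. DESeq2 called 0 members, against 0.0269% of all genes, and limma-voom called 1, Adamts18, against 0.0471% of all genes. The median log2 fold change of the 26 members of at least 1 TPM was 0.01 (13 positive, 13 negative), against -0.11 over all genes. No member, and 0% of all genes, separated the classes without overlap. Timp3 averaged 396 ± 193 CPM in CD4-deficient and 285 ± 96.5 CPM in CD4-competent libraries (SD, n = 10 each), with a log2 fold change of 0.47 ± 0.27 (SE; adjusted p = 0.762, edgeR). The means by background were 386 CPM in CD4KO, 189 CPM in TCRKO and 559 CPM in Tie2Cre_H2Abf. Among competent backgrounds they were 264 CPM in the libraries labelled CD8KO, 203 CPM in Tie2Cre and 363 CPM in WT. Within library numbers 97xx, which hold CD4KO, TCRKO, CD8KO and WT, the Timp3 value was -0.16, and within 95xx, which hold Tie2Cre_H2Abf and Tie2Cre, it was 1.43. In these bulk samples fewer cells of a type and less RNA per cell cannot be told apart. Mmp15 had a log2 fold change of 0.56 ± 0.33 (adjusted p = 0.78, edgeR), or 0.32 without CD4KO_9770. Adamts12 had 0.74 ± 0.50 (adjusted p = 0.826, edgeR), or 1.15 without WT_9771 and Tie2Cre_9501. Adamts5 averaged 3.23 ± 1.70 CPM in CD4-deficient and 7.80 ± 6.07 CPM in CD4-competent libraries, with -1.24 ± 0.51 on the log2 scale (adjusted p = 0.595, edgeR) and -0.76 without WT_9771 and Tie2Cre_9501. Adam11 had 5 counts in CD4-deficient and 111 in CD4-competent libraries (adjusted p = 0.454, edgeR), of which WT_9772 held 97.

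CD4KO against WT sets the libraries labelled CD4KO beside the wild type. edgeR called 0 of 43 members (0% of all genes), with 4 under an unadjusted p of 0.05 (8.58% of all genes), and DESeq2 and limma-voom called 0 members (0.639% and 0% of all genes). The groups did not overlap for 2 members, Mmp2 and Mmp19, both with the CD4KO libraries above, against 3.92% of all genes (2.73% with CD4KO above and 1.19% with it below). Mmp2 averaged 11.99 ± 5.88 CPM in CD4KO and 2.18 ± 2.58 CPM in WT (SD, n = 3 and 4), with a log2 fold change of 2.31 ± 0.87 (adjusted p = 0.573, edgeR). The summed CPM of 9 fibroblast markers was 26.2, 5.76 and 9.92 in CD4KO, against 0, 0, 34.5 and 1.14 in WT. Of these markers Col6a2 was also higher in CD4KO, at 2.84, 3.84 and 7.10 CPM, against 0, 0, 0.821 and 0.189 CPM in WT, with no overlap. In TCRKO Col6a2 stood at 12.1, 19.6 and 20.7 CPM, and Mmp2 at 12.2, 2.85 and 1.59 CPM. Pdgfra reached 12.2 CPM in CD4KO and 4.10 CPM in WT, and Col1a1 0.218 CPM in CD4KO and 4.10 CPM in WT. The part of fibroblast RNA in the Mmp2 values was not tested. The membrane MMPs had positive values: Mmp14 averaged 166 ± 63.8 CPM in CD4KO and 81.2 ± 47.01 CPM in WT (1.03 ± 0.50 on the log2 scale, adjusted p = 0.581, edgeR). Mmp15 had 1.24 ± 0.55 (adjusted p = 0.573), which became 0.35 without CD4KO_9770. Adamts5 had -2.23 ± 0.97 (adjusted p = 0.573, edgeR), or -1.33 without WT_9771, and Adam11 had 4 counts in CD4KO and 100 in WT, 97 of them in WT_9772. Timp3 was close in the groups, at 386 ± 57.5 CPM in CD4KO and 363 ± 76.9 CPM in WT. The median over the 26 members was 0.05, against -0.08 over all genes.

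TCRKO against WT sets the libraries labelled TCRKO beside the wild type. edgeR called 0 of 43 members, against 0.0269% of all genes, with 5 under an unadjusted p of 0.05 (8.65% of all genes). DESeq2 called 3, Timp3, Adamts9 and Adamts18 (1.16% of all genes), and limma-voom 0 (0.0269% of all genes). The groups did not overlap for 3 members, Timp3, Adamts9 and Mmp28, all with the TCRKO libraries below, against 7.67% of all genes (5.57% with TCRKO above and 2.1% with it below). In TPM the groups overlapped for each of these members. WT_9771 stood at 29.7, 6.97 and 0.7 TPM, against lowest TCRKO values of 39.0, 19.2 and 0.3 TPM. Timp3 averaged 189 ± 39.4 CPM in TCRKO and 363 ± 76.9 CPM in WT (SD, n = 3 and 4), with a log2 fold change of -0.94 ± 0.35 (adjusted p = 0.536 by edgeR, 0.0179 by DESeq2). Adamts9 averaged 76.3 ± 18.9 CPM in TCRKO and 159 ± 63.6 CPM in WT, with -1.06 ± 0.39 on the log2 scale (adjusted p = 0.536 by edgeR, 0.0269 by DESeq2). The summed CPM of 10 endothelial markers was 3303, 3180 and 2296 in TCRKO, against 4773, 4621, 2157 and 4251 in WT. The WT library at 2157 CPM was WT_9771, which stands apart, and the other WT libraries lay above all TCRKO libraries. The part of this sum in the values of Timp3 and Adamts9 was not tested. Without WT_9771 and Tie2Cre_9501 the values were -0.93 for Timp3 and -1.14 for Adamts9. Mmp28 averaged 1.78 ± 1.65 CPM in TCRKO and 7.71 ± 5.44 CPM in WT (-2.11 ± 1.24, adjusted p = 0.615, edgeR), and the log2 value was -3.23 without TCRKO_9766. Adam17 had -1.28 ± 0.67 (adjusted p = 0.584, edgeR), or -0.58 without WT_9749. Adam11 had 1 count in TCRKO and 100 in WT, of which WT_9772 held 97 and the other WT libraries 0, 0 and 3, so the difference rests on that library. Adamts18, under 1 TPM and singled out after its values were seen, had 0 counts in TCRKO and 65 in WT (adjusted p = 0.268, edgeR). The WT libraries held 0, 23, 9 and 33 of them, so the groups overlapped. Summed over the group, the counts were at least 26.3-fold lower with a floor of 3 counts. That bound holds counting error only and leaves out the spread between libraries. All 6 tested genes of the proteoglycan-cutting ADAMTS list had negative values, with a median of -1.21, against -0.20 over all genes. Among them Adamts15 had 11 counts in TCRKO and 11 in WT, all in TCRKO_9767 and WT_9771. Adamts8 had 26 and 94 counts and Adamts5 56 and 103. The members with more counts, Adamts4, Adamts1 and Adamts9, had -0.21 ± 0.40, -0.66 ± 0.45 and -1.06 ± 0.39. In the other comparisons with the same WT libraries, the list had 1 positive and 5 negative values in CD4KO (median -0.27), 0 and 6 in the libraries labelled CD8KO (-0.37) and 1 and 5 in Tie2Cre (-0.42). The median of the 26 members in TCRKO against WT was -0.49.

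Tie2Cre_H2Abf against Tie2Cre asks what loss of class II from Tie2Cre-marked cells goes with. Its libraries lie within a single number range, but every Tie2Cre library number lies below every Tie2Cre_H2Abf library number. Number order and genotype therefore cannot be told apart in this comparison. edgeR called 0 of 43 members, against 0.0202% of all genes, with 8 under an unadjusted p of 0.05 (8.54% of all genes). DESeq2 called 1, Timp3 (0.363% of all genes), and limma-voom 0 (0.0538% of all genes). The groups did not overlap for 4 members: Timp3 and Adamts7 with Tie2Cre_H2Abf above, and Adamts17 and Adamts18 with it below, against 9.04% of all genes (5.28% above and 3.76% below). In TPM Timp3 overlapped, with 80.5 in Tie2Cre_H2Abf_9582 and 90.45 in Tie2Cre_9502. Adamts17 overlapped in TPM as well, while Adamts7 and Adamts18 stayed apart. Timp3 averaged 559 ± 172 CPM in Tie2Cre_H2Abf and 203 ± 92.6 CPM in Tie2Cre (SD, n = 4 and 3), with a log2 fold change of 1.46 ± 0.36 and the smallest unadjusted p of any member in any comparison, 0.000393 (adjusted p = 0.424 by edgeR, 0.00147 by DESeq2). Without WT_9771 and Tie2Cre_9501 the Timp3 value was 1.15 (adjusted p = 0.806, edgeR). Endothelial marker sums were 3982 to 5941 CPM in Tie2Cre_H2Abf, against 2569 to 5053 CPM in Tie2Cre, and their part in the Timp3 value was not tested. Adamts7 averaged 72.01 ± 18.1 CPM in Tie2Cre_H2Abf and 23.8 ± 9.16 CPM in Tie2Cre, with 1.59 ± 0.51 (adjusted p = 0.576, edgeR). Adamts4 had 0.91 ± 0.41 (adjusted p = 0.576, edgeR) and Mmp2 -1.75 ± 0.84 (adjusted p = 0.576), the last at -1.03 without Tie2Cre_9501, in which Mmp2 had 38.5 CPM. Fibroblast marker sums were 2.32 to 4.81 CPM in Tie2Cre_H2Abf, against 5.29 to 22.7 CPM in Tie2Cre. Col6a2 overlapped, at 2.13, 2.37, 0.890 and 2.03 CPM in Tie2Cre_H2Abf, against 1.51, 2.32 and 0.126 CPM in Tie2Cre. The part of fibroblast RNA in the Mmp2 value of this comparison was not tested. Adamts18, under 1 TPM and singled out after its values were seen, had 3 counts in Tie2Cre_H2Abf and 149 in Tie2Cre (adjusted p = 0.576, edgeR). The Tie2Cre libraries held 4, 56 and 89 of them. The ratio of summed counts was 0.0157 (exact 95% interval 0.00320 to 0.0468). That interval holds counting error only and leaves out the spread between libraries. Adam11 had 0 counts in Tie2Cre_H2Abf and 10 in Tie2Cre, 9 of them in Tie2Cre_9501, so no fold is given. The median over the 26 members was 0.39, against -0.24 over all genes.

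The libraries labelled CD8KO against WT compare backgrounds that are both classed as competent. edgeR called 0 of 43 members (0% of all genes), with 4 under an unadjusted p of 0.05 (10.5% of all genes), DESeq2 called 1, Adam23 (0.545% of all genes), and limma-voom 0 (0.00672% of all genes). The groups did not overlap for Mmp2, with the libraries labelled CD8KO above, and for Timp3, with them below, against 5.16% of all genes (3.69% above and 1.47% below). In TPM the Timp3 groups overlapped, at 88.2, 260 and 65.9 in the libraries labelled CD8KO, against 92.15, 76.3, 29.7 and 130.1 in WT. The TPM means were 138 and 82.1, the opposite direction. CD8KO_9752, at 260 TPM, had the highest TMM factor, 3.685. Mmp2 averaged 20.2 ± 2.96 CPM in the libraries labelled CD8KO and 2.18 ± 2.58 CPM in WT (SD, n = 3 and 4), with 3.07 ± 0.88 on the log2 scale (adjusted p = 0.465, edgeR). Fibroblast marker sums there were 3.75 to 10.1 CPM, against 0, 0, 34.5 and 1.14 CPM in WT. Col6a2 stood at 2.45, 3.07 and 4.64 CPM, against 0, 0, 0.821 and 0.189 CPM in WT. The part of fibroblast RNA in the Mmp2 values was not tested here either. Adam23 had 0 counts in the libraries labelled CD8KO and 61 in WT, of which WT_9771, which stands apart, held 53 and the other WT libraries 5, 0 and 3, so no fold is given. Mmp12 had -1.42 ± 0.86 (adjusted p = 0.561, edgeR), or -0.85 without CD8KO_9752 and -2.18 without CD8KO_9753. Macrophage marker sums were 207 to 337 CPM in the libraries labelled CD8KO, against 235 to 734 CPM in WT. Mmp15 had 0.86 ± 0.55 (adjusted p = 0.603, edgeR), or 1.46 without WT_9772. Adam11 had 1 count in the libraries labelled CD8KO and 100 in WT, again 97 of them in WT_9772. The median over the 26 members was -0.27, against -0.18 over all genes.

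Tie2Cre against WT sets the Cre line alone beside the wild type, and here the Cre and the library number range (95xx against 97xx) cannot be told apart. edgeR called 0 of 43 members (0% of all genes), with 6 under an unadjusted p of 0.05 (6.85% of all genes), DESeq2 called 1, Mmp2 (0.511% of all genes), and limma-voom 0 (0% of all genes). The groups did not overlap for Mmp2 alone, with Tie2Cre above, against 4.21% of all genes (2.86% above and 1.34% below). Mmp2 averaged 21.4 ± 15.2 CPM in Tie2Cre and 2.18 ± 2.58 CPM in WT (SD, n = 3 and 4), with 3.14 ± 0.89 on the log2 scale (adjusted p = 0.493 by edgeR, 0.0337 by DESeq2). Without WT_9771 and Tie2Cre_9501 it was 2.15 (adjusted p = 0.592, edgeR). Fibroblast marker sums were 22.7, 9.63 and 5.29 CPM in Tie2Cre, against 0, 0, 34.5 and 1.14 CPM in WT. Their part in the Mmp2 value was not tested. Adamts7 averaged 23.8 ± 9.16 CPM in Tie2Cre and 70.3 ± 33.6 CPM in WT (-1.56 ± 0.51, adjusted p = 0.619, edgeR). Timp3 had -0.84 ± 0.35 (adjusted p = 0.693, edgeR), or -0.52 without Tie2Cre_9501 and -0.58 without both libraries that stand apart. Adamts4 had -0.80 ± 0.40 (adjusted p = 0.736, edgeR), or -0.52 without WT_9748. Timp1 had 6 counts in Tie2Cre and 28 in WT (-2.54 ± 1.59, adjusted p = 0.81, edgeR). The median over the 26 members was -0.43, against 0.02 over all genes.

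Mmp2 was lowest in WT, and the comparisons of CD4KO, of the libraries labelled CD8KO and of Tie2Cre with WT share the same 4 WT libraries. Set side by side, their Mmp2 values of 2.31, 3.07 and 3.14 on the log2 scale are therefore not independent. In the same way Timp3 and Adamts7 in Tie2Cre enter both the comparison with Tie2Cre_H2Abf and that with WT. A test for any difference among the 6 backgrounds called 0 members by edgeR (0.0605% of all genes), with 5 under an unadjusted p of 0.05 (9.34% of all genes). DESeq2 called 3, Timp3, Adamts9 and Adamts18 (1.75% of all genes), and limma-voom 0 (0.101% of all genes). Timp3 came first among the 26 (adjusted p = 0.242, edgeR), followed by Mmp2 (adjusted p = 0.465), Adam11, Adam23 and Adamts9.

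**Figure D4:**
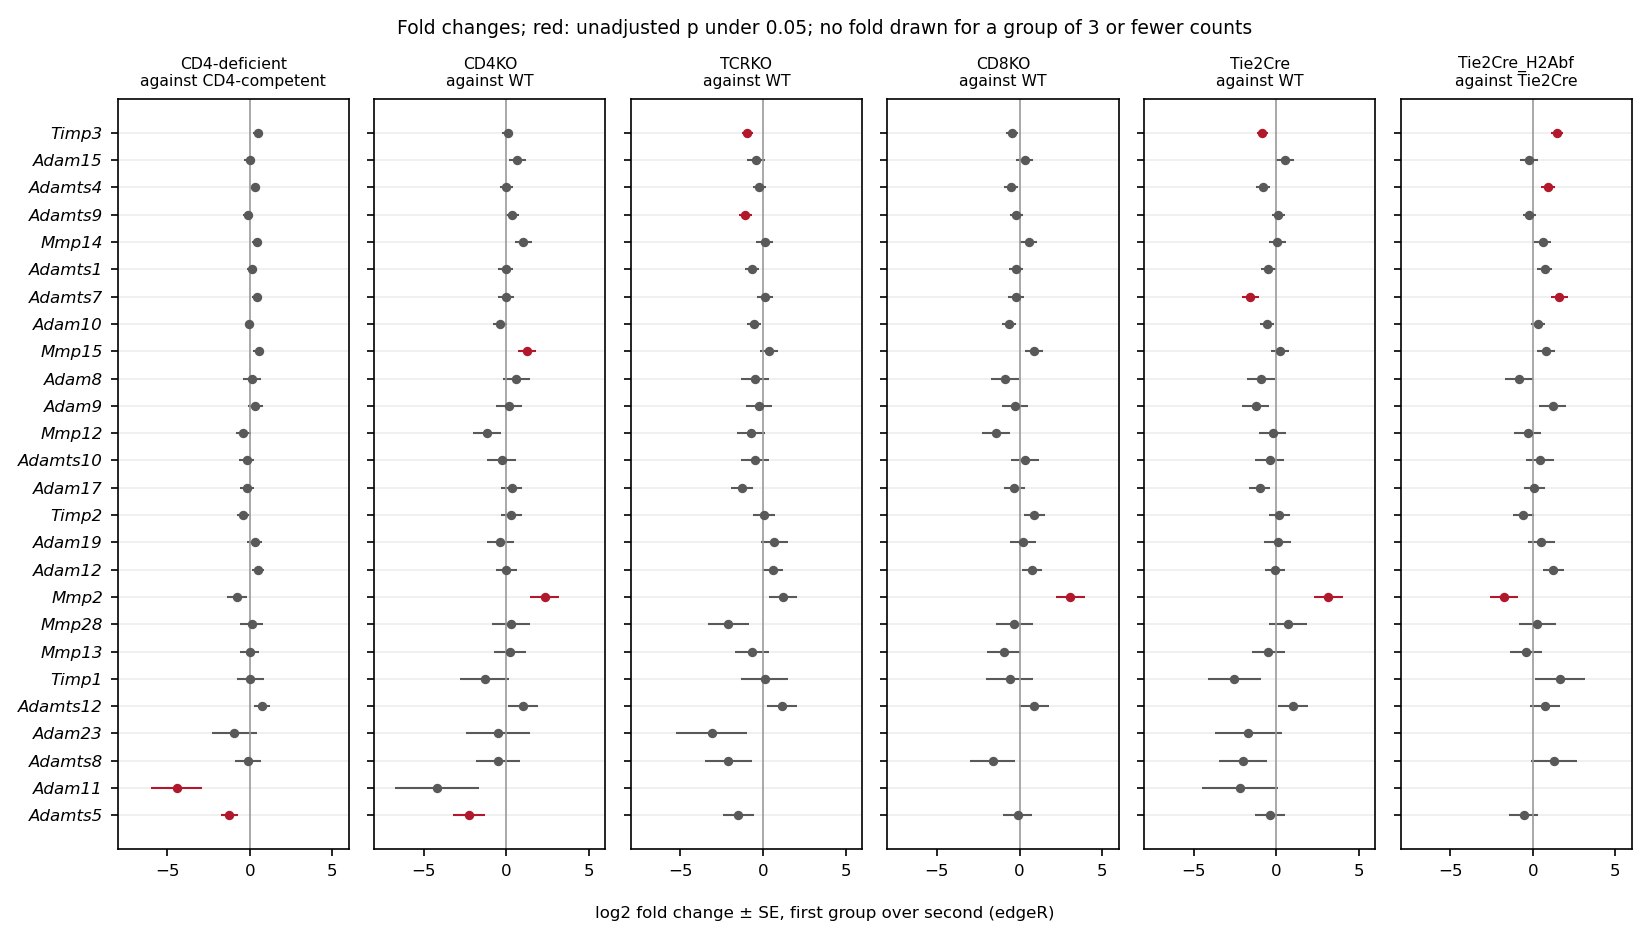
Log2 fold changes with SE (edgeR) of the 26 members in 6 comparisons, the group named first over the second. Red marks an unadjusted p under 0.05, and no fold is drawn where a group has 3 or fewer counts. Timp3 is at -0.94 in TCRKO against WT and at 1.46 in Tie2Cre_H2Abf against Tie2Cre, and Mmp2 is at 2.31 to 3.14 in the 3 comparisons of CD4KO, of the libraries labelled CD8KO and of Tie2Cre with WT.

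Around the proteases, 36 genes for activators, inhibitors, chaperones and relatives and 24 genes for known substrates were read in the same fits. edgeR called 0 of the 31 tested regulators and 0 of the 22 tested substrates in each of the 7 comparisons. In TCRKO against WT, 7 regulators and 6 substrates had an unadjusted p under 0.05, against 8.65% of all genes, and the substrates had a median of -0.62 (4 positive, 18 negative), against -0.20 over all genes. In Tie2Cre against WT, which shares the WT libraries, the substrates had a median of -0.42 (5 positive, 17 negative), against 0.02 over all genes. The substrates include Cdh5 and Kdr, which are also among the endothelial markers. The endothelial marker sum was 3303, 3180 and 2296 CPM in TCRKO and 2569, 5053 and 3455 CPM in Tie2Cre. In WT it was 4773, 4621, 2157 (WT_9771) and 4251 CPM, and its part in the substrate values was not tested. Vwf, the target of ADAMTS13, averaged 118 CPM in TCRKO and 475 CPM in WT (-2.0 ± 0.50, adjusted p = 0.233, edgeR). Shed adhesion molecules and chemokines stood with it: Vcam1 at -1.95 ± 0.54 (adjusted p = 0.307), Cx3cl1 at -2.09 ± 0.61 (adjusted p = 0.375) and Cxcl16 at -2.26 ± 0.70 (adjusted p = 0.403). Tspan15, a tetraspanin that carries ADAM10 to the cell surface, stood at 4.19, 7.01 and 7.05 CPM in TCRKO, against 52.3, 20.2, 13.1 and 39.4 CPM in WT (-2.37 ± 0.58, adjusted p = 0.223, edgeR). All 3 TCRKO libraries lay below all 4 WT libraries.

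In Tie2Cre_H2Abf against Tie2Cre, 6 regulators and 5 substrates had an unadjusted p under 0.05, against 8.54% of all genes, and the substrates had a median of 0.64 (17 positive, 5 negative), against -0.24 over all genes. Endothelial marker sums were 3982 to 5941 CPM in Tie2Cre_H2Abf, against 2569 to 5053 CPM in Tie2Cre. Their part in the substrate values was not tested. Fn1, fibronectin, stood at 2051, 418, 709 and 976 CPM in Tie2Cre_H2Abf, against 82.0, 312 and 193 CPM in Tie2Cre (2.41 ± 0.53, adjusted p = 0.217, edgeR). All Tie2Cre_H2Abf libraries lay above the Tie2Cre libraries. Hspg2, the basement membrane proteoglycan perlecan, had 1.02 ± 0.41 (adjusted p = 0.576), Vcam1 1.41 ± 0.53 (adjusted p = 0.576) and Vcan, versican, -1.85 ± 0.71 (adjusted p = 0.576, edgeR). Among regulators Tspan14, another carrier of ADAM10, had 1.51 ± 0.53 (adjusted p = 0.576) and Plaur, the urokinase receptor, 1.03 ± 0.43 (adjusted p = 0.576, edgeR). By CD4 status the regulators with the smallest p among those of at least 1 CPM included Cd44, a docking receptor for MMPs, at 1.01 ± 0.38 (adjusted p = 0.536, edgeR), and the substrates Vcan at -1.10 ± 0.47 (adjusted p = 0.617) and Hbegf, an EGF receptor ligand, at 0.90 ± 0.40 (adjusted p = 0.65). Lrp1, the scavenger receptor that clears MMPs and TIMPs, had -1.49 ± 0.67 in the libraries labelled CD8KO against WT (adjusted p = 0.465, edgeR) and -1.84 ± 0.68 in Tie2Cre against WT (adjusted p = 0.664), comparisons that share the WT libraries. Macrophage marker sums were 207 to 337 CPM in the libraries labelled CD8KO and 169 to 297 CPM in Tie2Cre, against 235 to 734 CPM in WT. Their part in the Lrp1 values was not tested.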

How the data were processed

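Total RNA of sorted CD31-positive tumour cells was amplified by MATQ and made into unstranded Nextera XT libraries, per the labels' protocols. The submitters' processing notes name the build GRCm38 and the tools DESeq2, RSEM 1.2.28, bcl2fastq 2.17 and STAR, for which a version was not given in the sources used here. Each of the 20 libraries has 1 table of 46983 genes that the authors deposited. Per the file headers, its expected counts are the raw estimates of RSEM. The deposited TPM values are scaled for length and depth by the authors' RSEM run and were used for levels only. Since RSEM divides reads among similar genes, close paralogs are uncertain.

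Symbols and positions came from GENCODE M21 (GRCm38), which matched 46488 of the 46983 IDs. Groups came from the labels. Expected counts were rounded, and edgeR 4.0.16 (R 4.3.3) fitted a quasi-likelihood model (robust, TMM scaling) to the 14875 genes that passed filterByExpr by background. A 6-group model served the pairs and the test of any difference, and a 2-group model CD4 status. P-values were adjusted by Benjamini-Hochberg over all tested genes, and the standard error of a log2 fold change was obtained from the F statistic. CPM uses effective library sizes, and the 3-count floor is 0.128 to 2.46 CPM, so low members are imprecise. Floors and intervals hold the error of counting alone.

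Per-library values were given for TIMPs, the 12 members with the highest mean TPM and the 5 of the 26 with the smallest p in each comparison. From the pathway lists a part of the 4 genes with the smallest p and at least 1 CPM was given. No fitted fold was given where a group had 3 or fewer counts; for Adamts18 a ratio or bound of summed counts stands in its place. The members and lists were chosen with earlier results of these data known. The fit was tested on simulated data with 200 genes changed by large folds. The simulated spread was smaller than that of these data, whose common biological coefficient of variation was 0.995. That test therefore does not show how well the fit detects changes here. Alternatives were DESeq2 1.42.0, limma-voom (limma 3.58.1) with sample weights, scaling by RLE, testing without a filter or with one of 5 CPM in 10 libraries, protein-coding genes only, only the groups compared, each library number range, the removal of WT_9771 and Tie2Cre_9501, and leaving out each library in turn.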

Additional observations from a re-analysis of the deposited data

Results flagged for a closer look

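Each member of at least 1 TPM was checked in the 2 groups of 4 libraries and in the 2 classes of 10 by CD4 status for a library whose gap to the next took most of the range on log2(CPM + 1). Of 104 such checks 7 found one, and chance finds about 1 in 20. That rate does not apply to Adam23 and Adam11, which passed the line of 1 TPM through single libraries. A library set apart in these genes followed from that choice. It does not apply either where all other libraries of a group had 0 counts. Adam15 stood at 162 CPM in WT_9748, with 77.95 CPM in the next WT library. Adam8 stood at 2.46 CPM in Tie2Cre_H2Abf_9589, with 11.7 CPM in the next of that background, and the macrophage marker sum there was 89.6 CPM, against 90.8, 594 and 235 CPM in the other Tie2Cre_H2Abf libraries. Adam23 was found 3 times: at 0.534 CPM in Tie2Cre_H2Abf_9583, where the other 3 libraries had 0, at 43.5 CPM in WT_9771, with 0.828 CPM in the next WT library, and at 22.9 CPM in CD4KO_9768 among the CD4-deficient libraries, with 2.96 CPM in the next. Adam11 stood at 0.873 CPM in CD4KO_9768 among the CD4-deficient libraries, with 0.227 CPM in the next, and at 18.4 CPM in WT_9772 among the CD4-competent libraries, with 3.40 CPM in the next. WT_9771 and CD4KO_9768 also had 2341 and 538 CPM of olfactory and vomeronasal receptor genes, and what part that has in Adam23 was not tested.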

How the results depend on the processing

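The number of members called was 0 by edgeR in all 7 comparisons and moved in 9 of 131 alternative fits. With DESeq2 it was 3 in TCRKO against WT, 1 in the libraries labelled CD8KO against WT, 1 in Tie2Cre against WT, 1 in Tie2Cre_H2Abf against Tie2Cre and 3 in the test of any difference. With limma-voom it was 1 for CD4 status. With no filter it was 1 (Adam23) in the libraries labelled CD8KO against WT and 5 in the test of any difference (Adam11, Adam23, Adam30, Adamts18 and Mmp2), and with a filter of 5 CPM in 10 libraries it was 1 there (Timp3, adjusted p = 0.0487, edgeR). The cause of these calls was not tested. Leaving out each library in turn gave 0 to 0 members in every comparison. Of 443 alternative log2 fold changes of the named members 1 changed sign: Timp3 by CD4 status was -0.16 within library numbers 97xx. Another 4 passed the adjusted threshold, all with DESeq2. Values that kept their sign still varied in size: in CD4KO against WT, Mmp15 ran from 0.35 to 1.81 and Adamts5 from -2.62 to -0.78 over the alternatives. Over single libraries left out, Timp3 ranged from 1.17 to 1.87 in Tie2Cre_H2Abf against Tie2Cre and from -1.03 to -0.76 in TCRKO against WT, Adamts9 from -1.27 to -0.83 in TCRKO against WT, and Mmp2 from 2.44 to 4.11 in Tie2Cre against WT. No paired analysis was possible because each library number occurs once. With 3 or 4 libraries a group and a common biological coefficient of variation of 0.995, small differences were not detectable, and members of a few counts rest on single libraries.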
